A study of Mus musculus with 16 samples.

Results

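The 10 genes described here encode enzymes that remove or make reactive oxygen species in the mouse heart. They were taken by name from the deposited table of 23946 genes: the superoxide dismutases Sod1, Sod2 and Sod3, the peroxide-removing enzymes Cat, Gpx1, Gpx3 and Prdx3, the stress-inducible enzymes Hmox1 and Nqo1, and the NADPH oxidase Nox4. Of the 10 genes, 9 reached 1 FPKM (fragments per kilobase of transcript, relative to the mapped fragments of the library) in at least 4 of 16 libraries and were tested among 12100 genes, and Nox4 did not. PolyA RNA came from adult male FVB mice, an inbred strain, aged 10 to 13 weeks. There were 4 groups of 4 libraries: the right ventricular (RV) free wall after pulmonary artery banding, the RV free wall after a sham operation, the left ventricular (LV) free wall after banding, and the LV free wall after sham. Banding narrows the vessel that the right ventricle pumps into and was used to bring about right ventricular failure, whereas the left ventricle is not loaded directly by the band. The banded libraries are labelled PS, which was read as banded because the protocol names only banding and sham. In both ventricles the banded libraries are PS_9552, PS_9553, PS_9561 and PS_9564. Those of the sham groups are numbered 1 to 4. The interval between operation and sampling is not given in the sources used here. Nothing in the labels says that the libraries came from separate mice, so p-values measure the spread between these libraries, which may be technical.

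Superoxide arises mainly from the mitochondrial respiratory chain and from NADPH oxidases. Superoxide dismutases turn it into hydrogen peroxide, which catalase, glutathione peroxidases and peroxiredoxins reduce to water. Cardiomyocytes are dense with mitochondria. The transcription factor NRF2 (Nfe2l2) induces many antioxidant enzymes, Nqo1 and Hmox1 among them, through antioxidant response elements.

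The libraries differed in ways that touch every level below. Rn45s, the precursor of ribosomal RNA, was listed at 0 in 5 banded libraries (RV PS_9561 and PS_9564, LV PS_9552, PS_9553 and PS_9561) and at 44335 FPKM or more in the other 11. Each library was therefore also divided by a scale factor, its median ratio to the average library over 8211 genes, which was 1.22 to 1.28 in those 5 libraries and 0.840 to 1.02 in the others. "Rose" and "fell" are used only of a gene past an adjusted p threshold of 0.05 on the deposited and on the rescaled values, with the same sign. Over all tested genes the median log2 difference between banded and sham was 0.26 in the RV and 0.33 in the LV as deposited, 0.11 and 0.01 after rescaling, and 0.63 and 0.17 when each library was brought to an equal sum (equal-sum scaling). Cardiomyocyte markers were high in every library, with the sum of 8 genes between 16992 and 44724 FPKM. This sum and all marker sums below are of FPKM as deposited. Markers of pancreatic islets and acini (13 genes) summed to 65.7 to 155 FPKM in RV banded, 649 to 2142 FPKM in RV sham, 25.6 to 59.1 FPKM in LV banded and 88.3 to 2101 FPKM in LV sham libraries, with Prss1, Try4 and Amy2a5 at 0 throughout. Their part in the results below was not tested.

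In the banded RV, Gpx3 and Nqo1 rose and Sod1 fell, so 3 of the 9 tested genes changed, where 15.5% of all tested genes did. Of all tested genes 10.5% rose and 4.93% fell. In the LV of the banded mice Gpx3 rose and the other 8 did not pass on both scales (1 of 9, against 2.74% of all tested genes, with 2.44% higher). As deposited alone, 6 of the 9 passed in the LV, all higher, where 14.6% of all tested genes passed in either direction. The banding effect differed between the ventricles for Sod1 (1 of 9, against 3.98% of all tested genes, with 3.45% lower). The median log2 difference of the 9 genes was 0.57 in the RV and 0.87 in the LV as deposited, and 0.39 and 0.47 after rescaling, above the medians of all tested genes. In the 11 libraries that list Rn45s, which leave 2 RV banded and 1 LV banded library, Gpx3 and Nqo1 still passed in the RV and Sod1 did not, at -0.54 (adjusted p 0.206). There no gene of the 9 passed in the LV or for the difference, and the lone LV banded library was assumed to vary like the other groups.

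**Figure D1:**
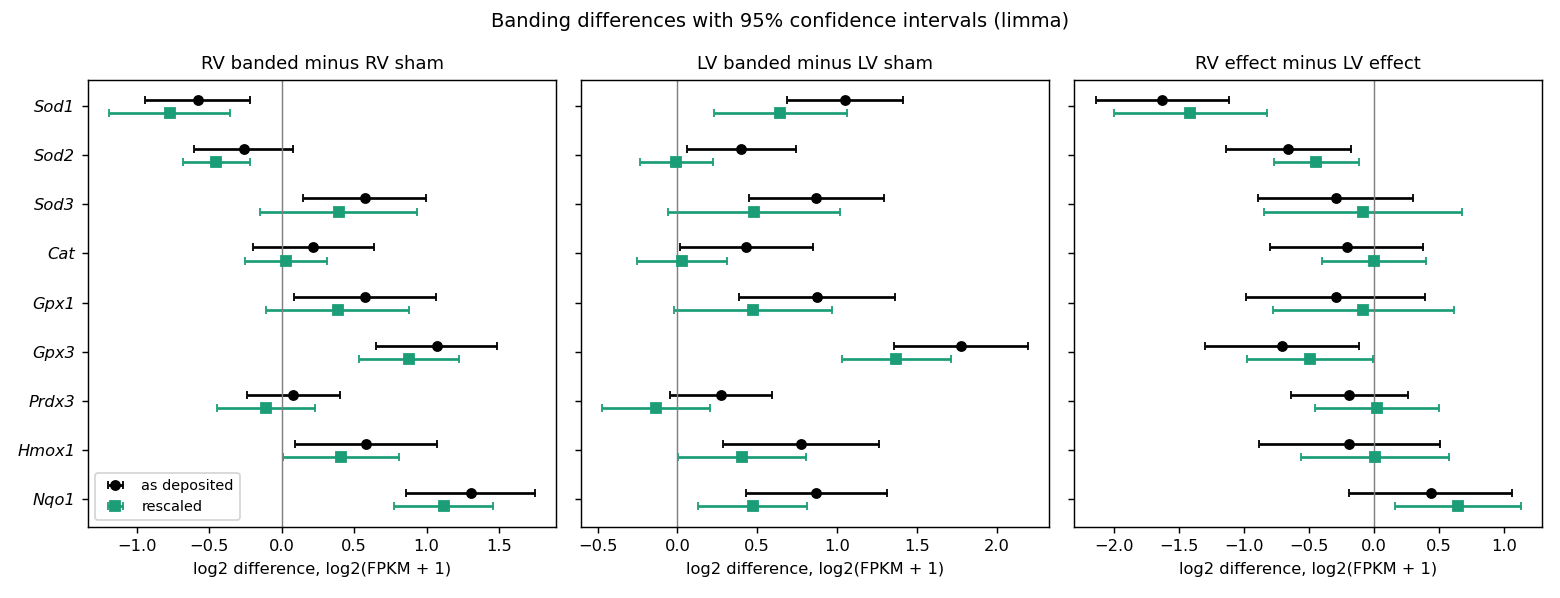
Log2 differences (banded minus sham, log2 of FPKM + 1) of the 9 tested genes in the RV, in the LV and as the RV minus the LV effect, as deposited and after rescaling, with 95% confidence intervals from limma over 4 libraries per group. Sod1 lies at -0.58 (right) and 1.05 (left) as deposited, while Gpx3 is above 0 in both, at 1.07 and 1.78, and the interval of Sod1 in the last panel runs from -2.15 to -1.12.

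The stretches in front of Sod1, Gpx3 and Nqo1, the 3 genes that changed, are shown because antioxidant response elements and AP-1 sites act there. RefSeq (GRCm38.p6) gave the 250 bases before the annotated start of 8 of the 10 genes; Sod3 and Hmox1 were not matched. They are written 5′ to 3′ on the gene's strand, with letters matching a motif in capitals: Sod1 at chr16:90220512-90220761 on the plus strand, Gpx3 at chr11:54902604-54902853 on the plus strand and Nqo1 at chr8:107403206-107403455 on the minus strand.
Sod1 promoter: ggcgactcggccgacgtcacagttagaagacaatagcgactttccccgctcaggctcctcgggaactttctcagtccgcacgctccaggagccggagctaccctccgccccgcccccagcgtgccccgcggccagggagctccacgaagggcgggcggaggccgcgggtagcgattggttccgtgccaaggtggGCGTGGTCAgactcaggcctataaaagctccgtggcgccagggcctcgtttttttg
Gpx3 promoter: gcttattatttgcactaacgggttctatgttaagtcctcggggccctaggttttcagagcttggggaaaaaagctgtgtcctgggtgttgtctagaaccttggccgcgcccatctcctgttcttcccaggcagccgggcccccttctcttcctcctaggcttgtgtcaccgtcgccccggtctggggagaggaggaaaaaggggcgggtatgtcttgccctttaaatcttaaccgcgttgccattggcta
Nqo1 promoter: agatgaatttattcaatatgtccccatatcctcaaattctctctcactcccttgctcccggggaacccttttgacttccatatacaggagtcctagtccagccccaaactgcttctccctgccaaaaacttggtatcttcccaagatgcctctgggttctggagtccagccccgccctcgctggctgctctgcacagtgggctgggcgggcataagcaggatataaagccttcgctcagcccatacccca
The letters TGACNNNGC (the core of the antioxidant response element) and TGACTCA (the AP-1 site) were searched on both strands. Of the 8 matched genes, Sod1 alone held a match, GCGTGGTCA, which is the core read on the opposite strand, at positions -56 to -48 from the start. Over 32851 promoter windows of the same length, 10.2% held the core and 4.46% the AP-1 letters. The windows of Gpx3 and Nqo1 held neither, which says only that these letters are not in these windows.

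**Figure D2:**
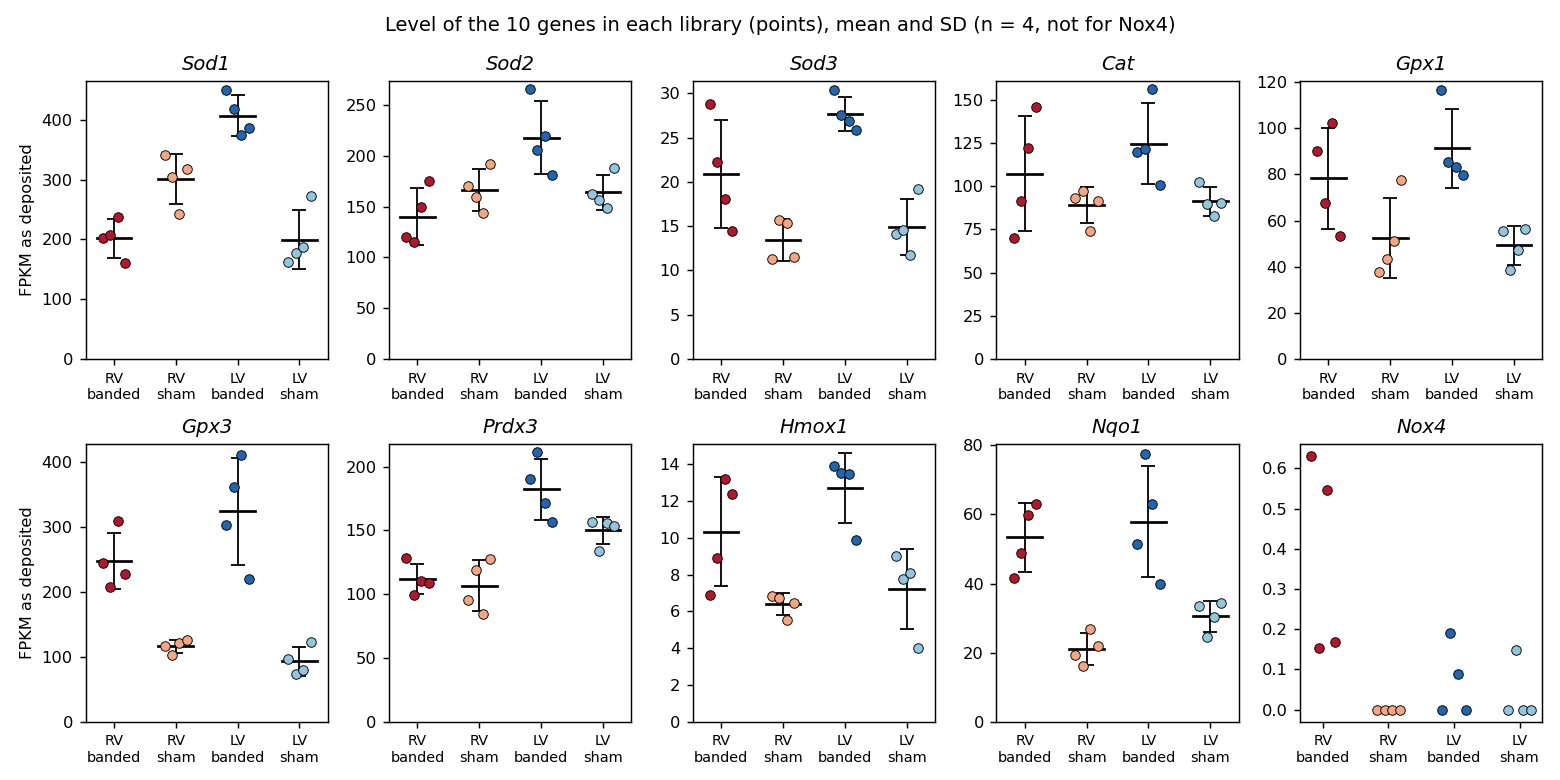
FPKM as deposited of each of the 10 genes in the 16 libraries, in panels with their own axes; points are libraries, and lines with bars are group means ± SD (n = 4), left out for Nox4 with its listed zeros. The Sod1 libraries of the banded right ventricle lie below all 4 sham libraries, those of the banded left ventricle above theirs, and Nox4 stays below 1 FPKM everywhere.

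Sod1, the copper-zinc dismutase of the cytosol, went opposite ways in the ventricles. It was at 203, 207, 238 and 159.96 FPKM in RV banded libraries, against 341, 304, 242 and 317 FPKM in RV sham libraries. In the LV it was at 449.9, 418, 375 and 386 FPKM in banded libraries, against 162, 177, 187 and 272 FPKM in sham libraries. Neither pair of groups overlapped as deposited, although in the RV the highest banded and the lowest sham library (238 and 242 FPKM) nearly met. After rescaling the LV groups overlapped, at 292 to 396 in banded and 166 to 298 in sham libraries.

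Sod1 thus fell in the RV, with a log2 difference of -0.58 ± 0.17 (SE; adjusted p 0.0304 by limma with Benjamini-Hochberg adjustment) and of -0.77 rescaled (adjusted p 0.0125). In the LV it was higher by 1.05 ± 0.17 as deposited (adjusted p 0.00167), and by 0.64 with an adjusted p of 0.0755 when rescaled, so the LV difference did not pass on both scales. The difference between the 2 effects, RV minus LV, was -1.63 ± 0.24 (adjusted p 0.00101), with a 95% confidence interval of -2.15 to -1.12, and -1.42 rescaled (adjusted p 0.00971). The RV call was lost without RV banded library PS_9564 and without RV sham library 1, 2 or 4, with an adjusted p of up to 0.0981. It was also lost with equal-sum scaling, at -0.08 (adjusted p 0.825), whereas the all-gene median on that scale was 0.63. The same call was lost with quantile normalization (-0.48, adjusted p 0.0511), with library weights (-0.56, adjusted p 0.0833) and in a fit to the 8 RV libraries alone (-0.58, adjusted p 0.0659). The difference between the ventricles held without any single library, with the larger adjusted p of both scales at most 0.0248. It was lost with equal-sum scaling, at -0.94 (adjusted p 0.151), and in a fit that treated libraries of the same number as pairs. With a correction for transcript length and GC content, Sod1, with a transcript of only 641 bases, was at -0.58 in the RV (adjusted p 0.0287) and at -0.90 for the difference (adjusted p 0.0438).

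Cardiomyocyte marker sums were lower in RV banded than in RV sham libraries, and higher in LV banded than in LV sham libraries. The 8 cardiomyocyte markers summed to 16992 to 24256 FPKM in RV banded, 26466 to 29292 FPKM in RV sham, 36366 to 44724 FPKM in LV banded and 17847 to 28134 FPKM in LV sham libraries. Of these 8, 1 rose and 2 fell in the RV, and 2 rose in the LV. Of all tested genes 10.5% rose and 4.93% fell in the RV, and 2.44% rose in the LV. Erythroid markers, of which 9 were in the table, summed to 214 to 523 FPKM in RV banded, 373 to 549 FPKM in RV sham, 506 to 1199 FPKM in LV banded and 132 to 257 FPKM in LV sham libraries. The RV sums of the erythroid markers overlapped. Of the 4 erythroid markers tested, Hba-a2 alone fell in the RV and alone rose in the LV. The median RV log2 difference of these 4 was 0.19 as deposited and 0.02 rescaled. Erythrocytes are known to be rich in the Sod1 protein, and the part of either cell type in the Sod1 values was not tested. In these tissue samples, fewer cells of a type and less RNA per cell cannot be told apart.

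Sod2, the manganese dismutase of the mitochondrial matrix, differed less. It was at 119.97, 115, 149 and 175 FPKM in RV banded libraries, against 170.3, 159, 143 and 192 FPKM in RV sham libraries. LV levels of Sod2 were 266, 205, 219.6 and 181 FPKM in banded libraries, against 163, 156, 148 and 188 FPKM in sham libraries. The groups overlapped in both ventricles as deposited. The RV log2 difference was -0.26 ± 0.16 (adjusted p 0.264) as deposited and -0.45 rescaled (adjusted p 0.00907), so that Sod2 passed on the rescaled values alone. After rescaling, its RV groups no longer overlapped, at 122 to 139 in banded against 161 to 188 in sham libraries. In the LV the difference was 0.40 as deposited (adjusted p 0.105) and -0.01 rescaled (adjusted p 0.986).

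Sod3, the secreted dismutase bound to the extracellular matrix, was the least abundant of the 3. It was at 28.8, 22.2, 18.1 and 14.5 FPKM in RV banded libraries, against 11.3, 15.7, 15.4 and 11.5 FPKM in RV sham libraries. LV levels of Sod3 were 30.4, 27.6, 26.9 and 25.9 FPKM in banded libraries, against 14.1, 14.6, 11.7 and 19.2 FPKM in sham libraries. As deposited, the RV groups overlapped through banded library PS_9564, and the LV groups did not overlap. After rescaling, the groups overlapped in both ventricles. The RV log2 difference was 0.57 ± 0.20 (adjusted p 0.0574) as deposited and 0.39 rescaled (adjusted p 0.289). The LV difference was 0.87 ± 0.20 (adjusted p 0.00944) as deposited and 0.48 rescaled (adjusted p 0.315), so it passed as deposited alone.

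Ratios within a library do not depend on its scale. Sod1 over Sod2 was 0.912 to 1.79 in RV banded libraries, against 1.65 to 2.005 in RV sham libraries. In the LV the same ratio was 1.69 to 2.14 in banded libraries, against 0.995 to 1.44 in sham libraries. The LV groups were therefore apart and the RV groups overlapped, with RV banded library PS_9564 lowest. Sod1 over Sod3 was 7.04 to 13.1 in RV banded libraries, against 15.8 to 30.2 in RV sham libraries, with no overlap. In the LV that ratio overlapped, at 13.9 to 15.1 in banded and 11.5 to 15.95 in sham libraries. A ratio shows unequal change and does not say which of its genes moved.

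**Figure D3:**
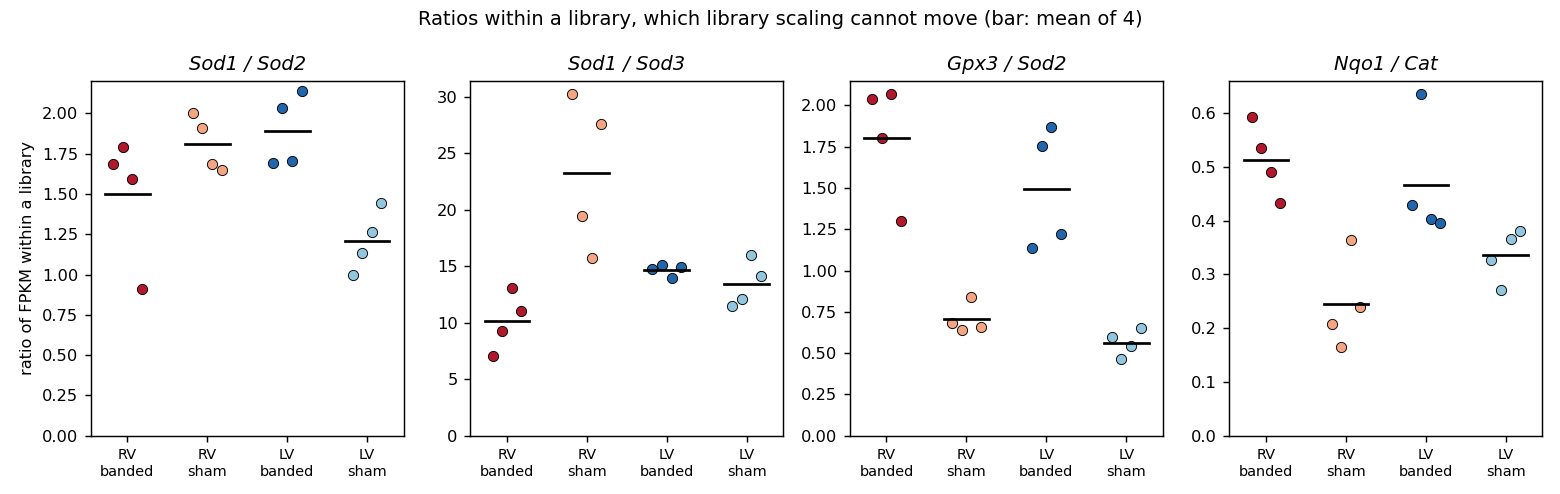
Ratios of FPKM between pairs of the genes within each of the 16 libraries, by group; points are libraries and bars are group means. Gpx3 over Sod2 lies above 1.1 in all 8 banded libraries and below 0.9 in all 8 sham libraries.

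Among the enzymes that remove peroxide, Gpx3 stood out in both ventricles. Gpx3 encodes the secreted glutathione peroxidase of plasma and extracellular fluid. It was at 245, 208, 308 and 228 FPKM in RV banded libraries, against 116, 102, 120.4 and 126 FPKM in RV sham libraries. In the LV it was at 302, 360.4, 411 and 220.3 FPKM in banded libraries, against 96.9, 72.7, 80.1 and 123 FPKM in sham libraries. In each ventricle every banded library exceeded every sham library. Gpx3 rose in the RV by a log2 difference of 1.07 ± 0.20 (adjusted p 0.00234) and of 0.88 rescaled (adjusted p 0.0019), higher in 4 of 4 banded libraries. It rose in the LV by 1.78 ± 0.20 (adjusted p 0.000701) and by 1.37 rescaled (adjusted p 0.00341). Both calls held without any single library. The difference between the ventricles was -0.71 with a 95% confidence interval of -1.30 to -0.12, and did not pass (adjusted p 0.173 as deposited, 0.221 rescaled).

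Gpx3 over Sod2 within a library was 1.30 to 2.07 in RV banded against 0.641 to 0.839 in RV sham libraries, and 1.14 to 1.87 in LV banded against 0.465 to 0.651 in LV sham libraries. Gpx3 over Gpx1 overlapped in the RV, at 2.72 to 4.27 in banded and 1.63 to 3.07 in sham libraries. It did not overlap in the LV, at 2.60 to 4.93 in banded against 1.70 to 2.18 in sham libraries. The 9 fibroblast markers summed to 830.2 to 1273 FPKM in RV banded and 820.2 to 1158 FPKM in RV sham libraries, which overlapped. In the LV they summed to 983 to 1561 FPKM in banded and 585 to 827 FPKM in sham libraries, which did not. Of the 9 fibroblast markers, 4 rose in the RV and 1 in the LV, where 10.5% and 2.44% of all tested genes rose. The part of these markers in the Gpx3 values was not tested.

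Gpx1, the most widespread glutathione peroxidase, found in cytosol and mitochondria, was at 89.9, 67.6, 102 and 53.4 FPKM in RV banded libraries, against 37.9, 43.3, 51.3 and 77.4 FPKM in RV sham libraries. LV levels of Gpx1 were 116, 85.4, 83.3 and 79.7 FPKM in banded libraries, against 55.5, 38.4, 47.1 and 56.2 FPKM in sham libraries. The RV groups overlapped and the LV groups did not. The RV log2 difference was 0.58 ± 0.23 (adjusted p 0.0902) as deposited and 0.39 rescaled (adjusted p 0.251). The LV difference was 0.87 ± 0.23 (adjusted p 0.0192) as deposited and 0.47 rescaled (adjusted p 0.273), so it passed as deposited alone.

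Cat, the peroxisomal catalase, was at 70.1, 91.2, 122 and 146 FPKM in RV banded libraries, against 93.5, 97.5, 73.9 and 91.5 FPKM in RV sham libraries. LV levels of Cat were 119.7, 122, 157 and 101 FPKM in banded libraries, against 103, 89.8, 82.7 and 90.2 FPKM in sham libraries. The groups overlapped in both ventricles, and the 2 highest RV banded libraries were those with Rn45s at 0. The log2 difference was 0.22 (95% confidence interval -0.20 to 0.63) in the RV and 0.43 (0.02 to 0.85) in the LV, and 0.03 in each when rescaled, with no call on either scale.

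Prdx3, the peroxiredoxin of mitochondria, was at 128, 99.5, 111 and 109 FPKM in RV banded libraries, against 95.1, 119, 84.7 and 128 FPKM in RV sham libraries. LV levels of Prdx3 were 189.9, 212, 171 and 156 FPKM in banded libraries, against 157, 134, 156 and 154 FPKM in sham libraries. Banded and sham libraries overlapped in both ventricles. The log2 difference was 0.08 (95% confidence interval -0.24 to 0.40) in the RV and 0.27 (-0.04 to 0.59) in the LV. Rescaled, these were -0.11 and -0.13, with no call on either scale.

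Nqo1, the quinone reductase that is a standard target of NRF2, rose in the RV. It was at 41.6, 48.8, 59.8 and 63.1 FPKM in RV banded libraries, against 19.3, 16.1, 26.9 and 21.9 FPKM in RV sham libraries. LV levels of Nqo1 were 51.4, 77.4, 63.0 and 39.9 FPKM in banded libraries, against 33.5, 24.4, 30.2 and 34.2 FPKM in sham libraries. The groups did not overlap in either ventricle. The RV log2 difference was 1.30 ± 0.21 (adjusted p 0.000891) and 1.12 rescaled (adjusted p 0.000368), and the call held without any single library. The LV difference was 0.87 ± 0.21 (adjusted p 0.012) as deposited and 0.47 rescaled (adjusted p 0.108), so it passed as deposited alone. The difference between the ventricles was 0.43 with a 95% confidence interval of -0.19 to 1.06 (adjusted p 0.495) as deposited, and 0.65 with an interval of 0.16 to 1.13 (adjusted p 0.107) rescaled, so it did not pass on either. It did pass with equal-sum scaling at 1.10 (adjusted p 0.0479), with quantile normalization at 0.87 (adjusted p 0.0418) and with the length and GC correction at 0.73 (adjusted p 0.0425). Within libraries, Nqo1 over Cat was 0.433 to 0.593 in RV banded against 0.165 to 0.364 in RV sham libraries, and 0.395 to 0.636 in LV banded against 0.272 to 0.380 in LV sham libraries. The groups were apart in both. The 8 endothelial markers summed to 1199 to 1948 FPKM in RV banded, 1062 to 1487 FPKM in RV sham, 1513 to 2093 FPKM in LV banded and 978 to 1175 FPKM in LV sham libraries, and 1 rose in each ventricle. The 8 mural markers summed to 267 to 362 FPKM in RV banded, 208 to 229.8 FPKM in RV sham, 212 to 376 FPKM in LV banded and 198 to 253 FPKM in LV sham libraries, and 2 rose in the RV. Of all tested genes 10.5% rose in the RV and 2.44% in the LV. As deposited, endothelial sums were apart in the LV and mural sums in the RV. The median log2 difference of the endothelial markers in the LV was 0.74 as deposited and 0.36 rescaled. For the mural markers in the RV it was 0.40 and 0.21. The part of either in the Nqo1 values was not tested.

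Hmox1, the inducible haem oxygenase that degrades haem to biliverdin, iron and carbon monoxide, was the lowest of the tested genes. It was at 6.88, 8.90, 13.2 and 12.4 FPKM in RV banded libraries, against 6.82, 6.73, 5.51 and 6.44 FPKM in RV sham libraries. LV levels of Hmox1 were 13.9, 13.5, 13.4 and 9.88 FPKM in banded libraries, against 8.98, 7.73, 8.07 and 4.02 FPKM in sham libraries. The groups did not overlap in either ventricle, but RV banded library PS_9552 lay just above the highest RV sham library. The RV log2 difference was 0.58 ± 0.23 (adjusted p 0.0884) as deposited and 0.41 rescaled (adjusted p 0.138). The LV difference was 0.77 ± 0.23 (adjusted p 0.034) as deposited and 0.40 rescaled (adjusted p 0.248). Macrophages express Hmox1 as they clear haem, and 13 macrophage markers summed to 202 to 344 FPKM in RV banded, 152 to 231 FPKM in RV sham, 255 to 419 FPKM in LV banded and 131 to 192 FPKM in LV sham libraries. Of these 13, 1 rose in the RV and 2 in the LV, where 10.5% and 2.44% of all tested genes rose. The part of these markers in the Hmox1 values was not tested. Without overlap between banded and sham libraries as deposited were 4 of the 9 genes in the RV (Sod1, Gpx3, Hmox1 and Nqo1), where 17.7% of all tested genes had none. In the LV they were 6 of the 9 (Sod1, Sod3, Gpx1, Gpx3, Hmox1 and Nqo1), where 23.2% had none. After rescaling they were 4 in the RV (Sod1, Sod2, Gpx3 and Nqo1) and 4 in the LV (Gpx1, Gpx3, Hmox1 and Nqo1). The share of all tested genes without overlap after rescaling is not given here, and the shares above are for the deposited values only.

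Nox4, the NADPH oxidase that makes hydrogen peroxide without an activating stimulus, was below 1 FPKM in all 16 libraries and was not tested. It was at 0.630, 0.154, 0.547 and 0.168 FPKM in RV banded libraries and listed at 0 in all 4 RV sham libraries. In the LV it was at 0.191 and 0.0895 FPKM in banded libraries PS_9553 and PS_9561 and listed at 0 in the other 2, and at 0.149 FPKM in sham library 2 and listed at 0 in the other 3. In the authors' deposited table of group values Nox4 stands at 0.518 FPKM in RV banded, 0 in RV sham, 0.0529 in LV banded and 0.102 in LV sham. The files give no counts. The smallest steps among low FPKM values put the RV banded libraries at an estimated 2.45e+06 to 6.17e+06 fragments and the RV sham libraries at 3.55e+05 to 1.35e+06. With an assumed fragment length of 200 bases, 3 fragments of Nox4 would have given 0.626 to 2.38 FPKM in the RV sham libraries. Of the RV banded values, 1 (0.630 FPKM) reaches the low end of that range. The listed zero of any single, shallower RV sham library therefore cannot show a direction by itself. Whether the zeros of all 4 RV sham libraries show a direction was not tested.

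Between the ventricles of sham mice, none of the 9 genes passed on both scales, where 3.88% of all tested genes did, although 3 (Sod1, Prdx3 and Nqo1) did so at an unadjusted p under 0.05 by limma. Sod1 was at 301 ± 42.3 FPKM in RV sham libraries and 199 ± 49.4 FPKM in LV sham libraries (SD, n = 4 each), a log2 difference of 0.61 with an adjusted p of 0.0538. Prdx3, at 107 ± 20.1 FPKM in RV sham and 149.98 ± 10.8 FPKM in LV sham libraries (SD, n = 4 each), was the only one without overlap, where 11.4% of all tested genes had none. Its log2 difference was -0.51 (adjusted p 0.0659) as deposited and -0.56 rescaled (adjusted p 0.04). Nqo1 passed on the rescaled values alone, at -0.59 (adjusted p 0.0366), against -0.53 as deposited (adjusted p 0.158).

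Between the ventricles of banded mice, Sod1 and Sod2 were lower in the RV on both scales (2 of 9, where 1.57% of all tested genes passed and 1.39% were lower). Sod1 was at 202 ± 31.9 FPKM in RV banded and 407 ± 33.8 FPKM in LV banded libraries (SD, n = 4 each), a log2 difference of -1.02 (adjusted p 0.00593) and of -0.86 rescaled (adjusted p 0.0355). Sod2 was at 139.9 ± 27.97 FPKM in RV banded and 218 ± 35.8 FPKM in LV banded libraries (SD, n = 4 each), a log2 difference of -0.64 (adjusted p 0.0412) and of -0.48 rescaled (adjusted p 0.0348). Without single libraries these calls were often lost: the Sod1 call held in 9 and the Sod2 call in 5 of 16 such fits. The Sod1 call was lost without RV banded PS_9553, PS_9561 or PS_9564, LV banded PS_9552, PS_9553 or PS_9564, or LV sham 3, and the Sod2 call without any 1 of the 8 banded libraries, RV sham 1, LV sham 1 or LV sham 3, with adjusted p-values of up to 0.107 and 0.156. Each of the 2 calls was also lost in 6 of 12 other settings. Prdx3, like both of these, had no overlap as deposited (3 of 9, where 10.6% of all tested genes had none). After rescaling, Prdx3 overlapped and Sod1 and Sod2 did not. Prdx3 passed as deposited alone, at -0.70 (adjusted p 0.0196), with an adjusted p of 0.0853 rescaled. That made 3 of 9 as deposited, against 3.08% of all tested genes.

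FPKM are per length, so levels can be ordered across genes. In the banded RV the order of group means was Gpx3, Sod1, Sod2, Prdx3, Cat, Gpx1, Nqo1, Sod3, Hmox1 and Nox4, with Gpx3 at 247 ± 43.3 FPKM and Hmox1 at 10.3 ± 2.96 FPKM (SD, n = 4). There, neighbours down to Gpx1 and Nqo1 overlapped, and Nqo1, Sod3 and Hmox1 were apart from each other. In the sham RV Sod1 and Sod2 came first and Gpx3 next, at 116 ± 10.2 FPKM (SD, n = 4), and Sod1, Sod2 and Gpx3 did not overlap. In the banded LV Sod1 and Gpx3 came first, at 407 ± 33.8 and 323 ± 81.8 FPKM (SD, n = 4), and neighbours overlapped down to Cat and Gpx1. In the sham LV the order began with Sod1, Sod2 and Prdx3, which overlapped as neighbours, and Gpx3 came next at 93.1 ± 22.1 FPKM (SD, n = 4), below every Prdx3 value. The authors' group values gave another order in both sham groups. There, Sod2 (327 FPKM) and Prdx3 (260 FPKM) stood above Sod1 (228 FPKM) in LV sham. Prdx3 (155 FPKM) stood above Gpx3 (134 FPKM) in RV sham.

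The wider redox system was described with 122 genes in 8 lists, 107 of them tested. Without the 9 genes above, 98 were tested, of which 13 rose and 11 fell in the RV (24.5%, where 15.5% of all tested genes changed). In the LV 3 rose and none fell (3.06%, where 2.74% changed). For the difference between the effects, RV minus LV, 11 were lower and none higher (11.2%, where 3.98% passed). These lists were written from general knowledge but with earlier results of these data known, so they are not independent of the data. Many of their calls depended on the scaling or on single libraries. Together with the 9 genes, 15 rose in the RV, of which 7 held without any single library and 15 with equal-sum scaling. Of the 12 that fell in the RV, 8 held without any single library, but only 1 (Gstk1) passed with equal-sum scaling, on which the all-gene median was 0.63, against 0.26 as deposited. Of the 12 lower for the difference, 9 held without any single library and 1 (Gstk1) with equal-sum scaling. In the LV no gene passed in 6 of the 8 lists. For the list counts below, the shares of all tested genes were 10.5% risen and 4.93% fallen in the RV. They were 2.44% risen in the LV and 3.45% lower for the difference. At an unadjusted p under 0.05 on both scales (limma), 22 of the 98 were higher and none lower in the LV, and 26 were lower and 3 higher for the difference between the effects. The share of all tested genes at that unadjusted threshold is not given here, so these counts show no excess. The same holds for the unadjusted counts of single lists and of the sham ventricles.

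**Figure D4:**
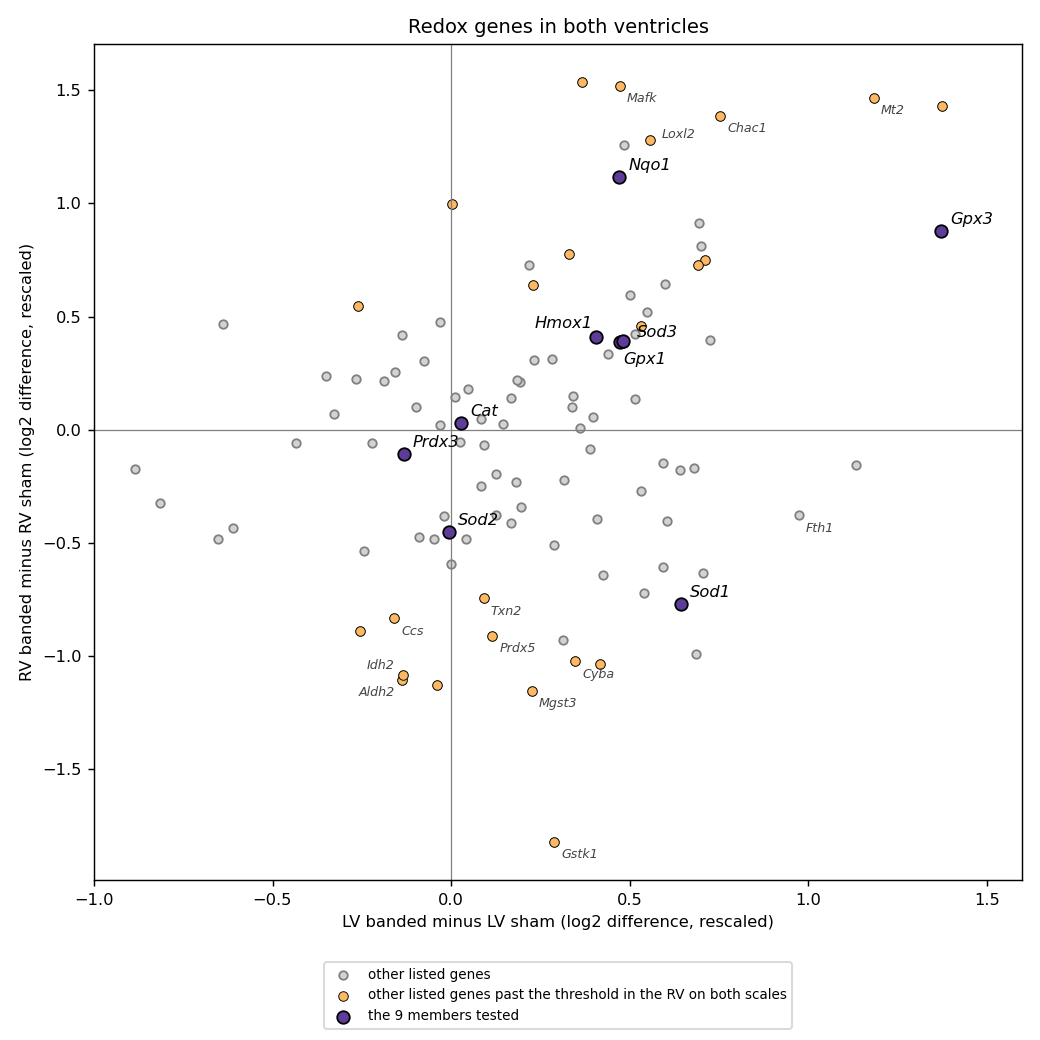
Log2 differences (banded minus sham, rescaled log2 of FPKM + 1) of the 107 tested redox genes, with the left ventricle on the horizontal and the right on the vertical axis; each point is a gene. Gpx3 lies at 1.37 and 0.88, Nqo1 at 0.47 and 1.12 and Sod1 at 0.64 and -0.77 (left, right), and Gstk1 is the lowest in the right ventricle at -1.82.

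In the first list, the dismutases with their copper chaperones, 2 of 5 fell in the RV, Sod1 and Ccs. Ccs, which loads copper into Sod1, was at 23.4 ± 5.62 FPKM in RV banded and 36.9 ± 6.84 FPKM in RV sham libraries (SD, n = 4 each), a log2 difference of -0.65 (adjusted p 0.0388) and of -0.83 rescaled (adjusted p 0.0019). The call was lost without RV banded PS_9552 or PS_9553 or RV sham 1, 2 or 4, with equal-sum scaling (-0.17, adjusted p 0.545) and with the length and GC correction (-0.52, adjusted p 0.0618). The list's median was -0.26 as deposited and -0.45 rescaled, and 0.23 with equal-sum scaling, where the all-gene median was 0.63. In the LV none of the 5 passed on both scales, 1 (Sod1) did so at an unadjusted p under 0.05 (limma), and the median was 0.55 as deposited and 0.14 rescaled.

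Of 12 tested catalase, glutathione peroxidase and peroxiredoxin genes, Gpx3 rose and Prdx5 fell in the RV. Prdx5, a peroxiredoxin of mitochondria, peroxisomes and cytosol, was at 347 ± 42.0 FPKM in RV banded and 576 ± 108 FPKM in RV sham libraries (SD, n = 4 each), a log2 difference of -0.72 (adjusted p 0.0109) and of -0.91 rescaled (adjusted p 0.00451). In the LV Prdx5 was at 504 ± 65.1 FPKM in banded and 353 ± 66.8 FPKM in sham libraries (SD, n = 4 each), and the difference between the effects was -1.24 (adjusted p 0.00539), which was lost in 10 of 16 fits without a single library. With equal-sum scaling Prdx5 was at -0.22 in the RV (adjusted p 0.511) and at -0.54 for the difference (adjusted p 0.365), which was also lost with quantile normalization (-0.35, adjusted p 0.381) and with the length and GC correction (-0.61, adjusted p 0.0744). The list's median was 0.46 in the RV and 0.87 in the LV as deposited, and 0.27 and 0.49 rescaled.

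Of 18 tested thioredoxin and glutaredoxin genes, 2 rose and 2 fell in the RV. Srxn1, the sulfiredoxin that restores overoxidised peroxiredoxins, was higher by 0.95 (adjusted p 0.02), and Txn1, the cytosolic thioredoxin, by 0.91 (adjusted p 0.0259). Txn2, the mitochondrial thioredoxin, was at 118 ± 7.94 FPKM in RV banded and 175 ± 25.8 FPKM in RV sham libraries (SD, n = 4 each), a log2 difference of -0.55 (adjusted p 0.0142) that held without any single library, as did its difference between the effects of -1.05 (adjusted p 0.0041). With equal-sum scaling Txn2 was at -0.06 in the RV (adjusted p 0.842) and at -0.36 for the difference (adjusted p 0.48), which was also lost with quantile normalization (-0.39, adjusted p 0.19) and with the length and GC correction (-0.48, adjusted p 0.0892). Glrx5, the mitochondrial glutaredoxin of iron-sulfur cluster transfer, was at a log2 difference of -0.70 (adjusted p 0.035). The calls of Srxn1, Txn1 and Glrx5 held in 11, 10 and 11 of 16 fits without a single library, and that of Glrx5 was lost with equal-sum scaling (-0.21, adjusted p 0.514). None of the 18 passed in the LV, and 3 did so at an unadjusted p under 0.05 (limma).

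Of 18 tested genes of glutathione synthesis and transfer, 2 rose and 4 fell in the RV. In the LV none passed, and 6 were higher at an unadjusted p under 0.05 (limma). Gstk1, the mitochondrial and peroxisomal glutathione transferase, was at 24.2 ± 8.03 FPKM in RV banded and 74.7 ± 7.75 FPKM in RV sham libraries (SD, n = 4 each), a log2 difference of -1.64 (adjusted p 0.000585). Mgst3, a microsomal transferase, was at 319 ± 42.9 FPKM in RV banded and 625 ± 118 FPKM in RV sham libraries (SD, n = 4 each), a log2 difference of -0.96 (adjusted p 0.000907). Both of these held without any single library. With equal-sum scaling Gstk1 kept its call, at -1.14 (adjusted p 0.00942), and Mgst3 did not, at -0.46 (adjusted p 0.122). The other genes of the list that fell, named to complete the count, were Gstt1 at -0.95 and Gstp1 at -0.85 (adjusted p 0.0076 and 0.00769), which held without any single library and were lost with equal-sum scaling (-0.48 and -0.36). Chac1, which breaks glutathione down, was at 3.65 ± 1.55 FPKM in RV banded and 0.775 ± 0.915 FPKM in RV sham libraries (SD, n = 4 each). Its lowest RV sham library was listed at 0, and depth limits the precision of so low a level. Chac1 was higher by 1.47 (adjusted p 0.0144), a call lost without RV banded library PS_9561. Gsr, which restores reduced glutathione, was higher by 0.73 (adjusted p 0.0224), held in 12 of 16 fits without a single library and lost with the length and GC correction (0.42, adjusted p 0.0989). For the difference between the effects 6 of the 18 were lower. Mgst3, with the smallest p as deposited, was at -1.59 (adjusted p 0.000825; -0.90 with equal-sum scaling, adjusted p 0.11), with Mgst3 at 653 ± 79.1 FPKM in LV banded and 419.6 ± 35.5 FPKM in LV sham libraries (SD, n = 4 each). Gsta, Gstm and Gstp genes have close paralogs and Fth1, described below, has pseudogenes; how reads were shared among copies is not given in the sources used here, so these levels are uncertain. The list's RV median was -0.16 as deposited and -0.33 rescaled, and 0.30 with equal-sum scaling.

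Of 21 tested haem, quinone and NRF2 genes, 6 rose and 1 fell in the RV, and 3 rose in the LV. Mafk, a small Maf protein that pairs with NRF2, was at 46.8 ± 7.04 FPKM in RV banded and 14.2 ± 5.18 FPKM in RV sham libraries (SD, n = 4 each), a log2 difference of 1.70 (adjusted p 0.000291). Mt2, a metallothionein that binds zinc and copper, was at 309.8 ± 113 FPKM in RV banded and 94.997 ± 29.02 FPKM in RV sham libraries (SD, n = 4 each), a log2 difference of 1.66 (adjusted p 0.000887). Aldh2, the mitochondrial aldehyde dehydrogenase, was at 140.1 ± 14.97 FPKM in RV banded and 265 ± 31.7 FPKM in RV sham libraries (SD, n = 4 each), a log2 difference of -0.91 (adjusted p 0.00193). These RV calls held without any single library. Aldh2 lost its call with equal-sum scaling, at -0.42 (adjusted p 0.196). The list's RV median was 0.24 as deposited and 0.06 rescaled, below the all-gene medians, and lay above them at 0.71 with equal-sum scaling, 0.15 with quantile normalization and 0.16 with the length and GC correction.

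Fth1, the ferritin heavy chain that stores iron, was the LV gene with the smallest p in that list. It was at 2554 ± 283 FPKM in LV banded and 1009 ± 332 FPKM in LV sham libraries (SD, n = 4 each), a log2 difference of 1.38 (adjusted p 0.00109), lost without LV banded library PS_9553 or LV sham library 2. In the RV it was at 1142 ± 136 FPKM in banded and 1303 ± 188 FPKM in sham libraries (SD, n = 4 each), and the difference between the effects was -1.57 (adjusted p 0.003), lost with equal-sum scaling (-0.87, adjusted p 0.137) and with quantile normalization (-0.73, adjusted p 0.0988). The other LV genes of the list that rose, named here to complete the count, were Mt2 at 1.59 (adjusted p 0.00188) and Sqstm1, the autophagy receptor p62, at 0.94 (adjusted p 0.00168). Without single libraries these calls held in 5 and 11 of 16 fits, and both were lost with equal-sum scaling and with quantile normalization. The cardiomyocyte and erythroid sums given beside Sod1 were also highest in the LV banded libraries, and their part was not tested. Nfe2l2 itself was at a log2 difference of 0.60 in the RV (adjusted p 0.119) and 0.79 in the LV (adjusted p 0.0526), with no call; it was chosen for mention after its values were seen.

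Of 12 tested genes that supply NADPH, the reductant behind these systems, 1 fell in the RV. In the LV none passed, and 1 (Me3) was higher at an unadjusted p under 0.05 (limma). Idh2, the mitochondrial NADP isocitrate dehydrogenase, was at 679 ± 102 FPKM in RV banded and 1251 ± 80.7 FPKM in RV sham libraries (SD, n = 4 each), a log2 difference of -0.89 (adjusted p 0.0013). The call held without any single library, as did the difference between the effects at -1.16 (adjusted p 0.00352), with Idh2 at 1027 ± 174 FPKM in LV banded and 842 ± 40.3 FPKM in LV sham libraries (SD, n = 4 each). With equal-sum scaling Idh2 was at -0.39 in the RV (adjusted p 0.153) and at -0.47 for the difference (adjusted p 0.344), and the difference was at -0.19 with quantile normalization (adjusted p 0.655).

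Of 17 NADPH oxidase genes, 9 were tested and 1 fell in the RV. Cyba, the p22phox subunit that Nox4 and Cybb need, was at 27.2 ± 6.90 FPKM in RV banded and 50.3 ± 16.7 FPKM in RV sham libraries (SD, n = 4 each), a log2 difference of -0.84 (adjusted p 0.0322), lost without RV banded PS_9552 or PS_9564 or RV sham 2 or 3, with equal-sum scaling (-0.35, adjusted p 0.379) and with the length and GC correction (-0.60, adjusted p 0.14). Of 12 tested other oxidant-producing enzymes, 4 rose in the RV. In the LV none passed, and 3 were higher at an unadjusted p under 0.05 (limma). Loxl2, a lysyl oxidase that releases hydrogen peroxide as it crosslinks collagen, was at 10.5 ± 1.70 FPKM in RV banded and 3.24 ± 0.844 FPKM in RV sham libraries (SD, n = 4 each), a log2 difference of 1.44 (adjusted p 0.00274) that held without any single library. Lox, of the same family, was at 1.83 ± 0.929 FPKM in RV banded and 0.351 ± 0.410 FPKM in RV sham libraries (SD, n = 4 each). Its lowest RV sham library was listed at 0, and depth limits the precision of so low a level. Lox was higher by 1.07 (adjusted p 0.013), a call lost without RV banded library PS_9561. The call was also lost with quantile normalization (0.50, adjusted p 0.11) and with the length and GC correction (0.61, adjusted p 0.0954). The others, named to complete the count, were Pcyox1 and the monoamine oxidase Maoa, both at 0.82 (adjusted p 0.0226 and 0.0405). Their calls held in 10 and 8 of 16 fits without a single library and were lost with the length and GC correction.

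The genes whose profiles over the 16 libraries were most like those of the 3 changed genes were found by the root-mean-square difference of centred, rescaled log2 values, among 6712 genes of at least 5 FPKM on average. For Sod1 these were Psmb6, a proteasome subunit, at 0.15 and Cox4i1, a cytochrome oxidase subunit, at 0.17, where the median candidate lay at 0.56. Cox4i1 was at 1560.4 ± 209 FPKM in RV banded, 2853 ± 511 FPKM in RV sham, 3294 ± 521 FPKM in LV banded and 1579.9 ± 508 FPKM in LV sham libraries (SD, n = 4 each). For Gpx3 they were Aebp1 at 0.25 and Serping1, the inhibitor of complement C1, at 0.25, with a median of 0.69. Serping1 was at 143 ± 26.6 FPKM in RV banded, 85.3 ± 11.96 FPKM in RV sham, 165 ± 46.95 FPKM in LV banded and 62.4 ± 14.6 FPKM in LV sham libraries (SD, n = 4 each). For Nqo1 they were Cd34, a surface protein of endothelial and progenitor cells, at 0.16 and Mtdh at 0.18, with a median of 0.59.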

How the data were processed

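The data are 16 libraries of polyA RNA. The submitters' processing notes name FastQC 0.11.5, STAR 2.5.3a, the build mm9, Cufflinks 2.2.1, Cuffdiff and R 3.3.1. The authors deposited FPKM per gene and library, without counts, and a table of group FPKM. The group values were used for Nox4, the order of levels and the signs in the LV only. Depth is therefore an estimate, and the fragments behind a value, fewest in the RV sham libraries, limit the precision of low genes such as Hmox1 and Nox4.

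All 4 groups entered 1 model of group means in limma 3.58.1 (R 4.3.3) with a trended prior, on log2(FPKM + 1) of the 12100 genes that reached 1 FPKM in 4 libraries or more, once as deposited and once divided by a scale factor per library. Fold changes on this scale understate changes of low genes. Benjamini-Hochberg adjustment ran over every tested gene, separately for each of 5 comparisons. The scripts were tested on simulated data.

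The genes and lists were chosen with earlier results of these data known. Named were the 10 genes, up to 2 genes per direction of each list in the RV and up to 1 in the LV and for the difference, by smallest p, and the 2 genes most like each changed gene. Alternatives were 2 further pseudocounts, 2 filters, 2 scalings, a length and GC correction, a robust prior, library weights, fewer libraries, a block on library numbers and leaving out each library. Promoters and transcript lengths came from RefSeq and GENCODE tables of another build than mm9.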

Additional observations from a re-analysis of the deposited data

Results flagged for a closer look

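The banding effect on Sod1 differed between the ventricles, with a log2 difference of -1.63 (RV minus LV, adjusted p 0.00101 by limma), from 202 ± 31.9 FPKM in RV banded and 301 ± 42.3 FPKM in RV sham, and 407 ± 33.8 FPKM in LV banded and 199 ± 49.4 FPKM in LV sham libraries (SD, n = 4 each). Single libraries lay far from the rest of their group of 4 for Gpx1 in LV banded library PS_9552 (116 FPKM), Hmox1 in LV banded library PS_9564 (9.88 FPKM), Prdx3 in LV sham library 2 (134 FPKM) and Nox4 in LV sham library 2 (0.149 FPKM). LV banded library PS_9564 was the only LV banded library that listed Rn45s above 0. These are 4 of 39 combinations of gene and group, and chance flags about 1 in 20. The Nox4 flag was fixed by the listed zeros of the rest of its group, whatever the value. That value stands for an estimated 1.08 fragments.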

How the results depend on the processing

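Gpx3 and Nqo1 in the RV kept their direction and call under all 12 settings and all 16 omissions of a library. Gpx3 in the LV was lost only in the libraries that list Rn45s. Of the 9 genes, those called on both scales numbered 3 (RV), 1 (LV), 1 (difference of the effects), 0 (sham ventricles) and 2 (banded ventricles), among 1871, 331, 482, 469 and 190 of all tested genes. With single libraries omitted the 9 genes gave 2 to 3, 1 to 2, 1 to 1, 0 to 1 and 0 to 2 calls, and all genes 1172 to 1992, 45 to 572, 274 to 595, 80 to 569 and 25 to 263, in the same order. The cause of the changes below was not tested.

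Equal-sum scaling gave 6 of the 9 and 5825 genes in the RV, 78 genes in the LV, 754 for the difference, 3 of the 9 and 3000 genes between sham and 0 of the 9 and 0 genes between banded ventricles. Quantile normalization gave 511 genes in the LV, and 2 of the 9 and 521 genes for the difference. It gave 2 of the 9 and 863 genes between sham ventricles, and 0 of the 9 and 192 genes between banded ventricles. Library weights gave 1019 genes in the RV, 3 of the 9 and 1489 genes in the LV, 260 between sham and 759 between banded ventricles. Fits to the compared libraries alone gave 810 genes in the RV, 531 in the LV and 40 between sham ventricles. They gave 1 of the 9 and 261 genes between banded ventricles. The libraries that list Rn45s gave 393 genes in the RV, 0 of the 9 and 3 genes in the LV, 0 of the 9 and 9 genes for the difference, 275 between sham, and 0 of the 9 and 4 genes between banded ventricles; fewer libraries entered these fits. The length and GC correction gave 5 of the 9 and 1763 genes in the RV (Sod2 at -0.86 and Gpx1 at 0.72 besides the 3). It gave 3 of the 9 and 477 genes for the difference, and 0 of the 9 and 191 genes between banded ventricles. As deposited alone there were 6 of the 9 and 1764 genes in the LV, 733 for the difference and 373 between banded ventricles. Rescaled alone there were 2 of the 9 and 1043 genes between sham ventricles, and no filter gave 1 of the 9 and 132 genes between banded ventricles.

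Library numbers gave little sign of pairing: the correlation of deviations exceeded 0.1 in 1 of 8 pairs (-0.09 to 0.15), and 1 library pair correlated best with its own number. Low correlations over 8 pairs cannot show that libraries of the same number came from different mice. With the replicate block, 0 of the 9 and 178 genes passed for the difference (Sod1 at a rescaled adjusted p of 0.0524), 108 genes between sham, and 0 of the 9 and 12 genes between banded ventricles.

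Signs turned for Sod2, Cat and Prdx3, none of them called against sham. In the RV, Sod2 was at 0.23 with equal-sum scaling, Cat at -0.15 in the libraries that list Rn45s and -0.15 with the length and GC correction, and Prdx3 at -0.28 with that correction, -0.021 to 0.18 without single libraries (lowest without RV sham library 3) and -0.11 rescaled. In the LV, quantile normalization gave -0.25 for Sod2, -0.15 for Cat and -0.37 for Prdx3, the length and GC correction -0.031, -0.041 and -0.40, and rescaling -0.0059 for Sod2 and -0.13 for Prdx3. The authors' group values were also lower in LV banded than in LV sham for Sod2 (288 and 327 FPKM), Cat (135 and 153 FPKM) and Prdx3 (232 and 260 FPKM). They were higher in LV banded for Sod1, Sod3, Gpx1, Gpx3, Hmox1 and Nqo1, with Nqo1 at 66.7 and 52.2 FPKM.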

Other observations

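The summed FPKM of the 10 genes was 868 to 1121 in RV banded libraries, against 764 to 972 in RV sham libraries, which overlapped. In the LV it was 1199.6 to 1539.6 in banded libraries, against 715 to 940.3 in sham libraries, which did not overlap as deposited. Sod1 made up 45.7% to 60.0% of the FPKM of the 3 dismutases in RV banded libraries, against 60.4% to 65.3% in RV sham libraries, and 60.3% to 65.2% in LV banded libraries, against 47.8% to 56.7% in LV sham libraries. Sod3 made up 4.14% to 8.19% in RV banded libraries, against 2.16% to 3.83% in RV sham libraries. These shares do not depend on the scale of a library. They were looked at after the values were seen and were not tested.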
